A study of Mus musculus with 35 samples.

Results

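Basp1, Susd4, Npr3, Procr, Mt4 and Mettl7a3 are 6 genes, of 47436 gene names present in every table, with more reads in fast-cycling than in slow-cycling basal cells of mouse tail skin in these libraries. They were chosen by their measured values, because their reads were lower in slow-cycling than in fast-cycling basal cells of the tail, or because the difference between slow and fast cells was lower in tail than in back skin. By the first criterion 5 of them passed (Npr3 did not), by the second 4 passed (Npr3, Procr, Mt4 and Mettl7a3), and 3 passed both. The 6 are a choice among more genes, as 222 were called by the first criterion and 103 by the second (adjusted p under 0.05, edgeR). Tail basal LRC and nLRC values, and the back basal ones that enter the second criterion, therefore chose the genes and are given here as a description without a test. Tests are given for the other groups and for levels averaged over slow and fast cells.

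RNA came from 35 libraries of sorted epithelial cells in 13 groups. All mice were C57BL/6J, aged 2 months, and carried both K5-tTA and pTRE H2B-GFP, so that cells with an active keratin 5 promoter made a histone-GFP label until doxycycline in the chow stopped it. Doxycycline ran for 2 weeks in the skin groups and for 10 days in the oral groups. Cells that kept the label are label-retaining cells (LRC, slow-cycling) and those that lost it are non-label-retaining cells (nLRC, fast-cycling). Basal cells of both classes were collected from back and tail (n = 3 libraries per class) and from palate and tongue (n = 2), and back skin also gave both classes of spinous cells (n = 3). The granular layer of back skin, the back hair follicle bulge and the tail hair follicle bulge gave 3 libraries each, not split by label. The promoter limits the label to keratin 5 lineages, and no label says whether replicates came from separate mice, so p-values measure the spread between libraries, which may be technical. Each library held 8421582 to 20560481 reads assigned to genes. Back bulge library 2 (scaling factor 0.500), palate nLRC library 2 (0.666) and tail bulge library 3 (0.779) stood apart from the other libraries in their fits, and tail nLRC library 1 had a factor of 0.769 in the fit of basal libraries. Tail LRC library 2 had reads on 27652 gene names, against 19726 to 23500 in the other tail libraries. Levels below are CPM, a gene's reads relative to its library's total, scaled by TMM, a correction for library composition, and the same 6 genes are compared with each other only by TPM, which divides by length. Fewer cells of a type and less RNA per cell cannot be told apart in such sorted bulk libraries.

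The 6 genes have separate functions. Mt4 encodes metallothionein 4, a small cysteine-rich protein that binds zinc and copper and is known from stratified squamous epithelia, whereas Mt1 and Mt2 are made in most tissues and respond to metals and glucocorticoids. Mettl7a3 belongs to the METTL7A family, membrane-anchored proteins of the endoplasmic reticulum and lipid droplets with a methyltransferase fold. Basp1 encodes a myristoylated protein that lies under the plasma membrane, like GAP43 and MARCKS, and that also acts as a transcriptional cofactor of WT1. Susd4 encodes a membrane protein with sushi domains that inhibits complement. Npr3 encodes the natriuretic peptide clearance receptor, which removes natriuretic peptides and lacks the guanylyl cyclase of NPR1 and NPR2. Procr encodes the endothelial protein C receptor, which presents protein C for activation and also marks stem cells of several tissues. Tail epidermis differs from back epidermis in its alternating scale and interscale regions.

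Members were placed on mm10. Mt4 (ENSMUSG00000031757.7) lies on the plus strand of chromosome 8 from 94137197 to 94139031, upstream of Mt3, Mt2 and Mt1 on the same strand. Mettl7a3 (ENSMUSG00000058057.5) lies on the plus strand of chromosome 15 from 100334929 to 100340375, between Mettl7a1 and Mettl7a2. Basp1 (ENSMUSG00000045763.8) lies on the minus strand of chromosome 15 from 25413764 down to 25363277, and Npr3 (ENSMUSG00000022206.7) on the same strand of that chromosome from 11907287 down to 11839896. Susd4 (ENSMUSG00000038576.15) spans 182763860 to 182896591 on chromosome 1 and Procr (ENSMUSG00000027611.12) spans 155751117 to 155755471 on chromosome 2, both on the plus strand. Chromosome 15 thus holds 3 of the 6, against 2.63% of all positioned names. As the 6 are a choice among more genes, nothing is read from that share. The start of Npr3 overlaps the noncoding Gm5144 on the opposite strand, and since the authors' use of strand in counting is not given in the sources used here, reads of the pair may mix.

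Reads of Mettl7a3 have to be told from those of its neighbours, so the same stretch of coding sequence is shown for the 3 genes (bases 574 to 663 of each 735-base coding sequence, 5′ to 3′, from the mm10 transcripts). Capitals in Mettl7a3 and Mettl7a1 mark the 12 bases at which these 2 differ, and Mettl7a2 has no difference from Mettl7a3 in this window.
Mettl7a3: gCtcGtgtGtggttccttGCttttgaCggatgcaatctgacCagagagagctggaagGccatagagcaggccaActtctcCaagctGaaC
Mettl7a2: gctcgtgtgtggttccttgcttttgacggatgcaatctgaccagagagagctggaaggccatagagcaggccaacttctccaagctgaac
Mettl7a1: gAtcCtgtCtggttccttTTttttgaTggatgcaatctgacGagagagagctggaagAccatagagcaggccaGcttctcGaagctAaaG
Over the whole coding sequence Mettl7a3 is 94.29% identical to Mettl7a1 (42 mismatches, 14.87% of 50-base words shared) and 99.05% identical to Mettl7a2 (7 mismatches, 59.62% of words shared). Counts of Mettl7a3 against Mettl7a1 therefore rest on many distinguishing bases, while those of Mettl7a3 against Mettl7a2 are uncertain.

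Promoters of the most abundant member and of one with a broad CpG-rich start are shown to let a reader see how unlike they are (the 100 bases before the RefSeq start on GRCm38.p6, 5′ to 3′ on the gene's strand). Capitals mark TATAAA, the GC box GGGCGG and the metal response core TGCNCNC on either strand; the first GC box of Basp1 begins before the printed stretch and some boxes overlap.
Mt4 promoter, chr8:94137104-94137203, plus strand: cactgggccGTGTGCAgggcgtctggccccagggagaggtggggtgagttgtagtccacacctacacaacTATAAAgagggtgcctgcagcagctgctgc
Basp1 promoter, chr15:25413765-25413864, minus strand: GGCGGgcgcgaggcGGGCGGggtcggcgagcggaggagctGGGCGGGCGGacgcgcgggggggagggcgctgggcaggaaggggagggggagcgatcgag
In the 250 bases before its start Mt4 holds 1 TATAAA, beginning at -30, and 4 metal response cores. Of 32851 mouse promoters searched over the same length, 12.37% hold a TATAAA and 44.41% at least 1 such core, so the core is common. The corresponding 250 bases of Basp1 hold 4 GC boxes, where 32.74% of promoters hold at least 1, and 30 CpG, against a median of 6 over all promoters. These matches describe letters and not bound sites.

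In tail basal cells all 6 genes were higher in every nLRC than in every LRC library. The tail contrast itself selected 5 of them, and Npr3 entered by the difference between tail and back alone. Over all 14993 genes tested in tail, 4.60% were called (adjusted p under 0.05), 1.48% were called lower in LRC and 13.8% had no overlap in that direction, and nothing is read from the 6 against these shares. By TPM their levels in tail nLRC libraries ran from 810 ± 59.5 for Mt4 (mean ± SD, n = 3) over 165 ± 25.2 for Mettl7a3, 11.4 ± 3.14 for Basp1, 7.88 ± 1.44 for Susd4 and 3.01 ± 1.45 for Npr3 to 2.41 ± 0.509 for Procr. Mt4 and Mettl7a3 were thus abundant, and the other 4 were minor transcripts.

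Mt4 stood at 240.0, 183 and 180.1 CPM in tail nLRC libraries 1, 2 and 3 and at 24.6, 23.8 and 23.02 CPM in LRC libraries. The 3 LRC values nearly coincide and lie far below the nLRC values, a log2 difference of -3.07 ± 0.19 (± SE throughout). Mettl7a3 stood at 193, 164 and 187 CPM in nLRC and 34.8, 39.1 and 50.9 CPM in LRC libraries (-2.11 ± 0.17), with 434 to 524 reads in each LRC library. Basp1 had 17.7, 20.9 and 10.8 CPM in nLRC and 0.320, 1.74 and 1.36 CPM in LRC libraries (-3.83 ± 0.49). Its LRC values rest on 4, 20 and 14 reads. Susd4 had 36.1, 63.2 and 46.0 CPM in nLRC and 0.961, 9.57 and 3.21 CPM in LRC libraries (-3.37 ± 0.63). The LRC libraries of Susd4 spread widely, with library 2 highest, and without it the difference was -4.57. Only 17.23% of the Susd4 reads of that library were accounted for by exons, by the estimate given below. Npr3 had 12.54, 22.4 and 20.2 CPM in nLRC and 1.60, 5.39 and 4.95 CPM in LRC libraries (-2.19 ± 0.60). In both populations replicate 1 was the lowest for Npr3. Procr had 3.58, 3.92 and 2.15 CPM in nLRC and 0.320, 0.261 and 0 CPM in LRC libraries (-3.91 ± 0.82), that is 21 to 33 reads against 0 to 4. On log2(TPM + 1), which understates changes of low genes, the tail differences were -1.30 for Npr3, -1.49 for Procr, -1.76 for Mettl7a3, -2.55 for Susd4, -2.65 for Mt4 and -2.78 for Basp1. The gene nearest the threshold among those lower in tail LRC was Acat1 (-0.52 ± 0.13), and Sdpr (-3.58 ± 0.89) lay just outside it.

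**Figure D1:**
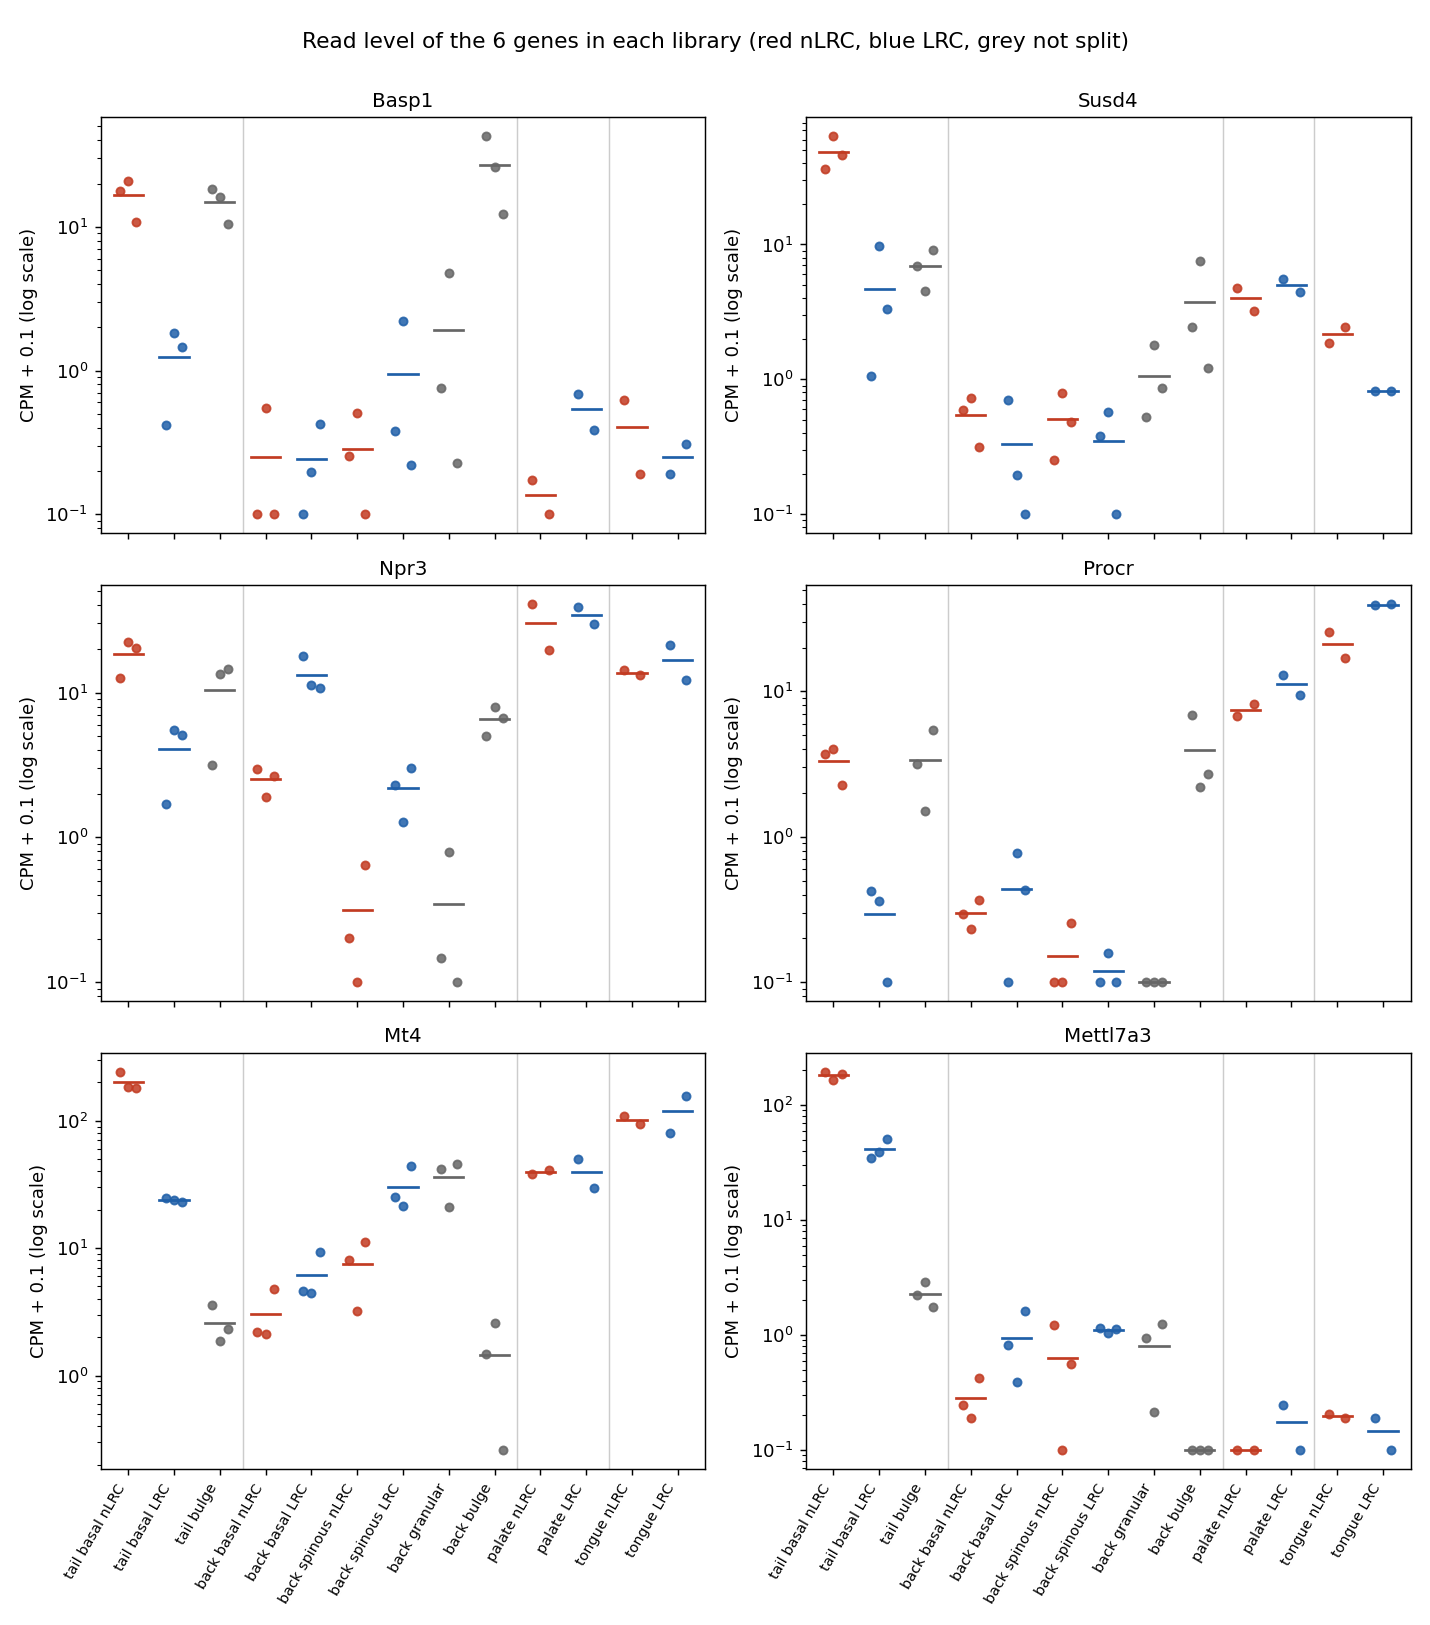
Read level of the 6 genes in each of 35 libraries, as CPM + 0.1 on a log axis (points are libraries, horizontal lines group means; red nLRC, blue LRC, grey not split by label). In tail the red points lie above the blue ones for every gene, Mettl7a3 is at most 1.51 CPM outside tail, and Procr is highest in tongue.

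Where the reads of a gene fell was estimated from the deposited RPKM times exon length, scaled on genes with a single exon and computed where a library held at least 50 reads. For Mt4 95.02 to 97.26% of reads in tail nLRC libraries, and for Mettl7a3 83.4 to 92.3%, were accounted for by exons. For Susd4 the share was 49.5, 30.1 and 36.2%, so by this estimate most of its reads there lay outside the annotated exons. For Npr3 it was 64.35 to 109.1% in tail nLRC and 45.49, 37.61 and 47.42% in back basal LRC libraries. The Npr3 share was also 46.62% in back basal nLRC library 1, and 52.44 and 59.86% in back bulge libraries 1 and 3. In tail LRC libraries 2 and 3 it was 58.32 and 54.43%. Low Npr3 values in back were thus not limited to LRC libraries. Whether the RPKM of back and tail rest on the same exon length was not tested, so nothing is read from this difference. Susd4 levels in CPM, which count all reads of the gene, and in TPM, which follow the exons, are therefore different quantities. In TPM Susd4 still stood at 6.22, 8.60 and 8.81 in tail nLRC against 0.390, 1.08 and 0.180 in tail LRC libraries.

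Other cell types were checked beside these values. The summed TPM of 5 genes of tail scale and tail basal populations (Krt31, Krt36, Krt84, Slc1a3 and Dlx1) was 613.9 to 1300.0 in tail nLRC and 75.7 to 262 in tail LRC libraries, and 1 of the 5 was called lower in LRC. The 6 bulge genes (Cd34, Lhx2, Sox9, Krt15, Postn and Lgr5) went the other way, at 356 to 609 TPM in nLRC and 1860.0 to 3178 TPM in LRC libraries, with 4 of 6 called higher in LRC. Upper follicle genes were called higher in tail LRC for 3 of 4, and sebocyte genes lower for 3 of 5 tested. Endothelial genes (Pecam1, Cdh5, Kdr, Tek, Emcn and Egfl7) summed to 0.120 to 0.860 TPM over both tail basal populations, and the 4 Merkel cell genes summed to 0 TPM in all tail nLRC libraries. Spinous genes (Krt1, Krt10, Sbsn and Krtdap) summed to 2628 to 3627 TPM in nLRC and 5682 to 6444 TPM in LRC libraries, with 1 of 4 called higher in LRC, and basal keratinocyte genes to 25870.0 to 28760.0 and 15160.0 to 17470.0 TPM, with 2 of 5 called lower. Fibroblast genes summed to 1.57 to 6.89 TPM in tail nLRC and 0.21 to 0.33 TPM in tail LRC libraries, with 0 of 3 tested genes called. The part of these cell types in the 6 differences was not tested.

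In back basal cells the 6 genes did not share a direction. Over all genes 0.235% were called there, and 6.20% had every LRC above every nLRC library. Npr3 stood at 17.7, 11.2 and 10.7 CPM in back LRC and 2.88, 1.79 and 2.56 CPM in back nLRC libraries, a log2 difference of 2.46 ± 0.76 in the opposite direction to tail, with no overlap (1.43 on log2(TPM + 1)). Mt4 had 4.496, 4.36 and 9.30 CPM in LRC and 2.10, 2.01 and 4.70 CPM in nLRC libraries (1.05 ± 0.60), and the highest nLRC library exceeded 2 of the LRC libraries. Each replicate number of Mt4 was higher in LRC. Mettl7a3 had only 6 to 23 reads in LRC and 2 to 6 in nLRC libraries (2.15 ± 1.14). Basp1 (-0.22 ± 1.68), Susd4 (-0.87 ± 1.14) and Procr (0.74 ± 1.11) had at most 14 reads in any back basal library, so the values of these 3 rest on few reads. As part of the choice, the LRC effect in tail minus that in back was -4.73 ± 1.02 for Procr, -4.68 ± 0.57 for Npr3, -4.24 ± 0.64 for Mettl7a3, -4.14 ± 0.49 for Mt4, -3.65 ± 1.53 for Basp1 and -2.54 ± 1.17 for Susd4, while 2.71% of all genes were called by that contrast and 0.602% were called lower. The value of Basp1 was -7.73 without back nLRC library 2 and -2.40 without back LRC library 3, and that of Susd4 was -0.59 without back LRC library 1. Beside these values, sebocyte genes summed to 151.9 to 192.9 TPM in back LRC and 243.2 to 543.2 TPM in back nLRC libraries (1 of 6 called lower). Upper follicle genes summed to 387.7 to 519 and 547.3 to 815 TPM, and spinous genes to 5795 to 7304 and 4418 to 5461 TPM, with none of either list called by the edgeR test. Their part in the back values was not tested.

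The back spinous layer, which the choice did not use, showed higher Npr3 and Mt4 in LRC than nLRC libraries. These 2 of 6 genes rose, none fell, and 15.5% of all genes were called (6.88% higher and 8.63% lower). Npr3 had 2.18, 1.18 and 2.91 CPM in spinous LRC and 0.102, 0 and 0.541 CPM in spinous nLRC libraries, a log2 difference of 3.39 ± 0.93 (adjusted p = 0.0204, edgeR quasi-likelihood test with Benjamini-Hochberg adjustment, as for every adjusted p below unless another test is named). The spinous nLRC values rest on 2, 0 and 7 reads. Mt4 had 25.1, 21.3 and 43.9 CPM in spinous LRC and 7.97, 3.11 and 11.1 CPM in nLRC libraries (2.03 ± 0.60, adjusted p = 0.0294). Basp1 (2.08 ± 1.41), Mettl7a3 (0.92 ± 1.07), Susd4 (-0.68 ± 1.16) and Procr (1 read in LRC and 2 in nLRC libraries in all) did not pass. Neither call was stable: without spinous LRC library 1 or 3, or nLRC library 1 or 2, the adjusted p of Npr3 was 0.0502, 0.0608, 0.0801 and 0.0954 and that of Mt4 0.0563, 0.117, 0.0724 and 0.150. On log2(TPM + 1) with limma Npr3 differed by 0.48 (adjusted p = 0.479). Sebocyte genes were lower in spinous LRC for 5 of 6 and spinous keratinocyte genes higher for 4 of 4, and their part in the result was not tested.

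**Figure D2:**
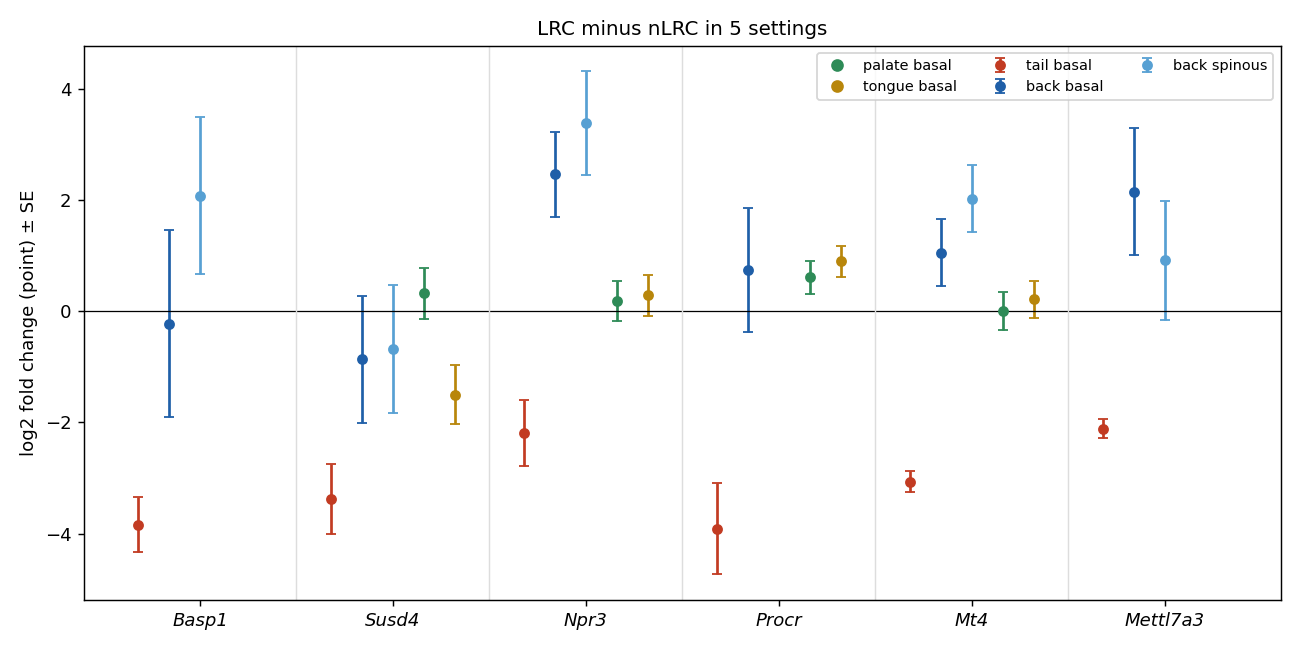
LRC minus nLRC as log2 fold change ± SE (bars) for the 6 genes in tail basal, back basal, back spinous, palate basal and tongue basal cells. Tail values lie between -3.91 and -2.11, Npr3 and Mt4 lie above 0 in both back layers, and Basp1 and Mettl7a3 have no palate or tongue value because they fell below the count filter. Procr has no back spinous value because it had 3 reads there in all.

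In palate and tongue none of the members was called between LRC and nLRC. Basp1 and Mettl7a3 did not pass the filter on low counts there, and with 2 libraries a group the tests called 0% of all genes in palate and 0.00670% in tongue. At an unadjusted p under 0.05 the edgeR test had 1082 of 14923 genes in palate, none of them a member. In tongue it had 696 of 14923, 2 of them members (Susd4 and Procr), and nothing is read from these 2. Procr stood at 39.2 and 39.6 CPM in tongue LRC and 25.4 and 16.7 CPM in tongue nLRC libraries, so both LRC libraries were above both nLRC libraries (0.90 ± 0.28, adjusted p = 0.639). In palate Procr had 12.9 and 9.40 CPM in LRC and 6.65 and 8.13 CPM in nLRC libraries, again without overlap (0.61 ± 0.29, adjusted p = 0.640). Such separation upward was seen in 18.2% of genes in tongue and 16.9% in palate. Susd4 was lower in tongue LRC (0.726 and 0.723 CPM) than in nLRC libraries (1.77 and 2.35 CPM), at -1.50 ± 0.53 (adjusted p = 0.807), as 20.2% of genes separated downward, and had 0.33 ± 0.46 in palate. Mt4 differed by 0.01 ± 0.34 in palate and 0.21 ± 0.34 in tongue, and Npr3 by 0.19 ± 0.36 and 0.29 ± 0.37. In tongue the summed TPM of 6 fibroblast genes was 121.8 to 152.8 in nLRC and 26.4 to 77.0 in LRC libraries. Of the 6, 2 had 0 reads in tongue nLRC and 4 in tongue LRC libraries, and the 1 gene tested was not called. The sum thus rests on few genes, and its part in the Procr and Susd4 values was not tested.

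Through the layers of back skin, Mt4 was higher and Npr3 lower above the basal layer. Between spinous and basal cells (each the mean of LRC and nLRC on the log scale) 9.07% of genes were called (4.90% higher and 4.18% lower), and of the 6 members 1 rose and 1 fell. Mt4 rose by 1.86 ± 0.43 (adjusted p = 0.00987) and Npr3 fell by 3.10 on the log2 scale (SE 0.60, adjusted p = 0.00324). Within LRC, Npr3 had 13.2 ± 3.90 CPM in basal LRC and 2.09 ± 0.869 CPM in spinous LRC (SD, n = 3). Basp1 (1.48 ± 1.11), Mettl7a3 (0.92 ± 0.77) and Susd4 (0.00 ± 1.23) did not pass, and Procr went from 19 reads in basal LRC and 12 in basal nLRC libraries to 1 and 2 in the spinous ones (adjusted p = 0.109, and 0.0436 with DESeq2). Granular cells differed from spinous cells in 4.01% of genes and in none of the members by the edgeR test. At an unadjusted p under 0.05 that test had 2646 of 16574 genes, 1 of them a member (Mt4). Mt4 stood at 41.6, 20.9 and 45.4 CPM in granular libraries (1.28 ± 0.48, adjusted p = 0.167, and 0.0482 without the filter on low counts), overlapping the spinous LRC values. Basp1 spread from 0.128 to 4.70 CPM over the 3 granular libraries, and library 2 had the highest CPM there for Basp1, Susd4 and Npr3. Procr had 0 reads in all granular libraries, a level of at most 3 reads in each.

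The bulge divided the 6 genes. In tail bulge against tail basal cells 24.6% of all genes were called (14.2% higher and 10.4% lower), and 2 members rose (Basp1 and Procr) and 2 fell (Mt4 and Mettl7a3). Mt4 stood at 3.46, 1.76 and 2.21 CPM in tail bulge libraries and Mettl7a3 at 2.12, 2.81 and 1.66 CPM, all below every tail basal library of either label class, as were 10.1% of all genes. The falls were -4.74 ± 0.22 (adjusted p = 4.64e-07) for Mt4 and -5.25 ± 0.22 (adjusted p = 2.57e-07) for Mettl7a3. Basp1 had 18.2, 15.9 and 10.3 CPM in tail bulge libraries. That range overlapped the tail nLRC libraries and lay above the tail LRC libraries, and the rise of 1.80 ± 0.37 (adjusted p = 0.00528) is over the mean of both. Procr had 3.08, 1.41 and 5.34 CPM, likewise near the nLRC level (2.01 ± 0.60, adjusted p = 0.0348). The low tail LRC values that chose Basp1 and Procr enter the mean over which both rises are taken. Neither rise, nor the count of 2, is therefore read as a result about the bulge. Without tail bulge library 1 or 3, or any 1 tail nLRC library, the adjusted p of Procr was 0.0563 to 0.181, and limma on log2(TPM + 1) gave 0.68 (adjusted p = 0.219). Susd4 (6.83, 4.45 and 9.03 CPM) differed by -1.14 ± 0.56 (adjusted p = 0.175), and was called lower by limma on log2(TPM + 1) (-0.91, adjusted p = 0.0160), without the filter on low counts (-1.12, adjusted p = 1.26e-05) and without tail LRC library 1 (-1.40, adjusted p = 0.0274). Npr3 ranged from 3.08 to 14.6 CPM in tail bulge (0.29 ± 0.50, adjusted p = 0.728).

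In back bulge against back basal cells 26.3% of genes were called (15.7% higher and 10.6% lower), and 3 members rose and 2 fell. The 3 that rose had no overlap with basal libraries, as had 10.3% of genes in that direction. Basp1 had 42.5, 26.1 and 12.1 CPM in bulge libraries 1, 2 and 3 against 0 to 0.446 CPM in basal libraries (7.53 ± 1.10, adjusted p = 8.35e-05). Procr had 6.81, 2.10 and 2.61 CPM against 0 to 0.679 CPM (3.94 ± 0.87). No p is given for Procr, because it passed the filter of this fit through its bulge reads. Its call is in the counts above, but the value is a description. Susd4 had 2.36, 7.43 and 1.12 CPM against 0 to 0.625 CPM (3.44 ± 0.90, adjusted p = 0.00933). The highest Susd4 value is that of bulge library 2, and without it the rise was 2.41 (adjusted p = 0.0806). Mt4 fell by 1.83 on the log2 scale (SE 0.63, adjusted p = 0.0422), at 1.37, 2.48 and 0.160 CPM, overlapping basal nLRC. Without back bulge library 1 or 3, or basal LRC or nLRC library 3, the adjusted p of Mt4 was 0.0568, 0.144, 0.0755 and 0.0783, and with bulge and basal libraries alone it was 0.141. Mettl7a3 had 0 reads in all 3 bulge libraries, which allows up to 3 reads in each, against 2 to 23 reads in basal libraries (adjusted p = 0.0290), and without bulge library 1 or 3 its adjusted p was 0.0682 and 0.0776, and with limma on log2(TPM + 1) it was 0.258. Npr3 did not pass (0.22 ± 0.63), with 4.92, 7.81 and 6.60 CPM in bulge libraries between the basal nLRC and LRC levels.

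Beside both bulge comparisons stand the endothelial genes, of which 6 of 6 were called higher in bulge than basal cells in tail and in back. Their summed TPM was 36.3, 9.98 and 52.8 in tail bulge libraries 1, 2 and 3 and 391.6, 14.98 and 138.8 in back bulge libraries, against at most 1.62 in any back or tail basal library. Procr, which is known from endothelium, had the same order over the libraries as the endothelial sum in tail bulge and in back bulge. In back bulge Basp1 had that order too by TPM (132.26, 19.5 and 30.43 in libraries 1, 2 and 3), though not by CPM. By CPM Basp1 did not have the endothelial order in tail bulge either. Susd4 had it by CPM in tail bulge but not in back bulge, where it was highest in library 2, the lowest in the endothelial sum. Melanocyte genes summed to 137, 7.89 and 351 TPM in the back bulge libraries and 5 of 5 were called higher there. The part of these cells in the Procr, Basp1 and Susd4 values was not tested.

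**Figure D3:**
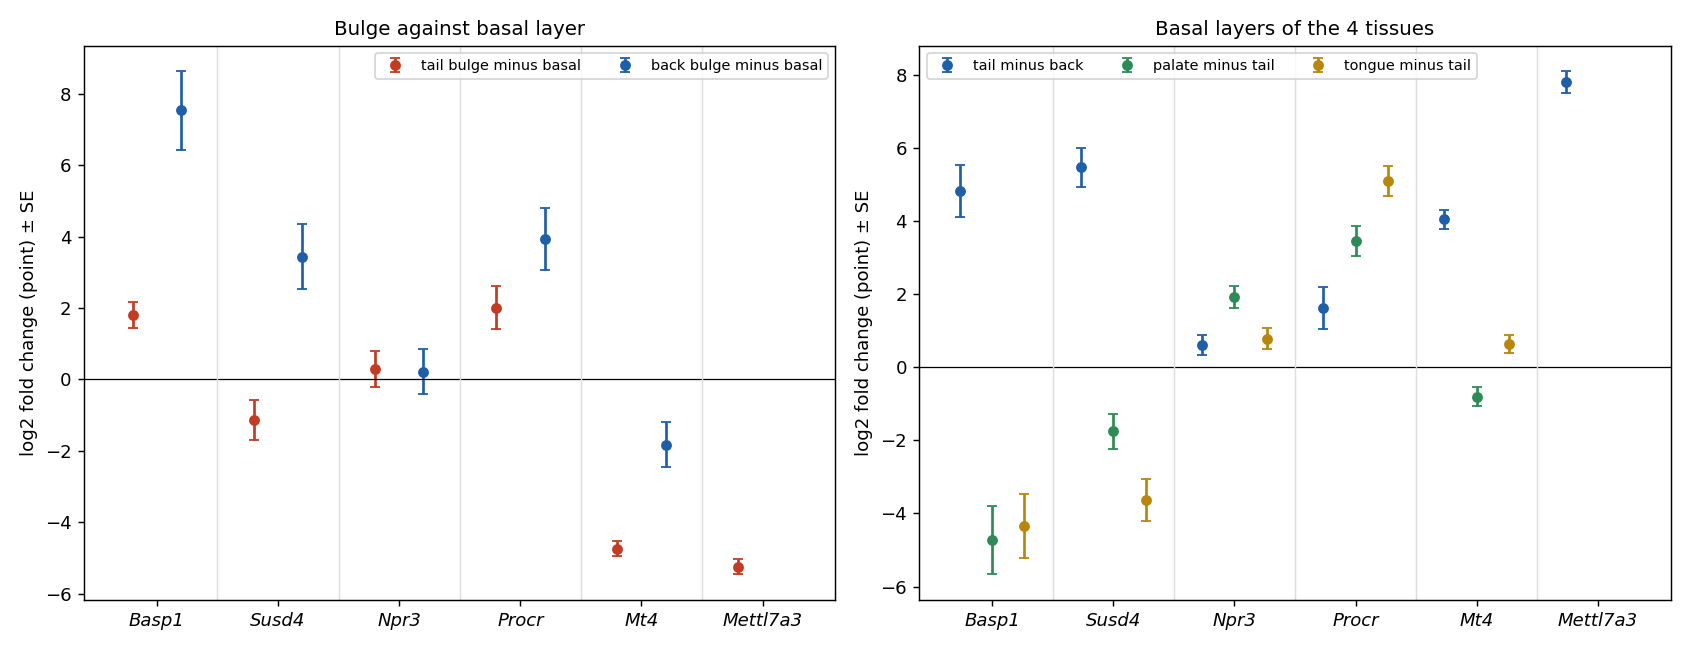
Log2 fold change ± SE (bars) of bulge against basal cells in tail and back skin (left) and between the basal layers of the 4 tissues (right), basal being the mean of LRC and nLRC. Basp1 and Procr lie above 0 and Mt4 below 0 in both bulges; Mettl7a3 is not plotted where 1 side holds at most 3 reads in all.

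Averaged over LRC and nLRC, the basal layer of tail held more of 5 of the 6 genes than that of back skin. Of all genes 58.3% were called between these tissues (31.0% higher and 27.2% lower in tail) and 16.9% had every tail above every back library, and a gene had to be measurable in tail to be picked, so the count of 5 is not read against that share. Mettl7a3 differed most, at 34.8 to 193 CPM in the 6 tail libraries and 0.0892 to 1.51 CPM in the 6 back libraries (7.80 ± 0.31, adjusted p = 8.55e-12). Susd4 (5.47 ± 0.53, adjusted p = 1.12e-07), Basp1 (4.83 ± 0.72) and Mt4 (4.05 ± 0.26, adjusted p = 7.33e-10) rose as well. No p is given for Basp1, because it passed the filter of this fit through its tail reads, which also chose it. For Mt4 the lowest tail library (23.02 CPM) lay above the highest back library (9.30 CPM). Procr rose by 1.62 ± 0.57 (adjusted p = 0.0223), without passing when only these groups were fitted (adjusted p = 0.0659), without tail LRC library 1 (0.139) or without tail LRC library 2 (0.0740). Npr3 did not pass (0.60 ± 0.28, adjusted p = 0.0725), though DESeq2 called it (0.66, adjusted p = 0.0438), as did the fits without back LRC library 1 (0.77), tail LRC library 1 (0.80) or tail nLRC library 1 (0.71). Back and tail tables list different numbers of gene names (53715 and 49585) and their scales differ: on log2(TPM + 1) the median of all tested genes was 0.80 lower in tail, against 0.07 higher by counts. On that scale Mettl7a3 (5.88), Mt4 (2.55), Basp1 (1.85) and Susd4 (1.66) were still called higher in tail, Procr was not (0.32, adjusted p = 0.188), and Npr3 turned to -0.16. Tissue and the making of the tables cannot be told apart here.

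Palate and tongue basal cells shared high Procr and low Basp1, Susd4 and Mettl7a3 against tail. Between palate and tail 26.9% of genes were called (13.8% higher and 13.1% lower in palate), and 2 members rose and 4 fell. Between tongue and tail 28.6% were called (13.3% higher and 15.3% lower in tongue), and 1 rose and 3 fell. Procr reached 16.7 to 39.6 CPM in the 4 tongue and 6.65 to 12.9 CPM in the 4 palate libraries, above every tail basal library, as were 10.5 and 8.19% of genes (5.09 ± 0.41, adjusted p = 4.38e-08 in tongue and 3.46 ± 0.42, adjusted p = 6.83e-06 in palate). Npr3 was higher in palate than in tail (19.7 to 40.6 CPM, 1.92 ± 0.30, adjusted p = 9.08e-05) and in tongue had 0.79 ± 0.30 (adjusted p = 0.0585, and 0.0489 with DESeq2). Mt4 fell in palate by 0.80 on the log2 scale (SE 0.26, adjusted p = 0.0275). That call was lost without palate nLRC library 1 or 2, palate LRC library 2 or tail nLRC library 1 (adjusted p 0.0527 to 0.147). In tongue Mt4 had 0.63 ± 0.25 (adjusted p = 0.0627, and 0.0144 with tongue and tail libraries alone), at 80.6 to 156 CPM between the tail LRC and nLRC levels. Susd4 fell in both, at -1.75 ± 0.48 in palate (adjusted p = 0.0117) and -3.63 ± 0.56 in tongue (adjusted p = 8.79e-05). The palate call of Susd4 was lost without palate LRC library 2 (adjusted p = 0.0529). Basp1 had -4.73 ± 0.94 in palate and -4.35 ± 0.88 in tongue, with at most 8 reads in any oral library. It was under the filter in the oral fit and passed it in this fit through its tail reads, which also chose it. Its calls are in the counts above, but the values are given as a description without a p. Mettl7a3 had 2 reads over the 4 palate libraries and 3 over the 4 tongue libraries against 6341 over the 6 tail libraries, a pooled ratio of 2267 (95% counting interval 627 to 18720.0) and 1424 (487 to 6907). Its oral reads are under the filter, and since the members had to be measurable in tail to be picked, nothing is read from how many fell in palate or tongue. Doxycycline time also differed between skin and oral groups and cannot be told apart from tissue.

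The order of groups shows which levels are separated. For Susd4, tail nLRC (48.5 ± 13.8 CPM, SD, n = 3) stood first and did not overlap the next group, tail bulge (6.77 ± 2.29 CPM), below which palate, tail LRC and back bulge each overlapped the next. For Mt4, tail nLRC (201 ± 33.8 CPM) again stood alone above tongue, and for Mettl7a3 tail nLRC (181 ± 15.2 CPM), tail LRC (41.6 ± 8.34 CPM) and tail bulge (2.20 ± 0.581 CPM) were each separate from the next. Basp1 was highest in back bulge (26.9 ± 15.2 CPM), which overlapped tail nLRC (16.5 ± 5.17 CPM) and tail bulge (14.8 ± 4.04 CPM), all 3 above the remaining groups. For Npr3 the 11 highest groups formed a chain of overlaps from palate LRC (34.4 ± 6.82 CPM, n = 2) to back spinous LRC (2.09 ± 0.869 CPM). For Procr both tongue and both palate groups came first, each without overlap with the next except palate nLRC, which overlapped back bulge. Tail nLRC (3.22 ± 0.936 CPM) was only the seventh group for Procr, above back basal cells.

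Across the 13 group means of log2 CPM, the members followed different patterns. The highest Pearson r between 2 members was 0.79 (Npr3 and Procr), followed by 0.65 (Basp1 and Susd4), and the lowest were -0.28 (Procr and Mettl7a3) and -0.23 (Basp1 and Mt4). Among 8613 genes compared, those most like 5 of the members were Srp9 for Susd4 (r = 0.937), Myof for Npr3 (0.942), Zfhx3 for Procr (0.956), Fam25c for Mt4 (0.934, with Ankzf1 equal) and Pithd1 for Mettl7a3 (0.952). These are descriptions over 13 points that share libraries, depth and the split between tables.

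In tail Mt1 and Mt2 were lower in LRC, as Mt4 was. Mt1 had 127 ± 39.3 CPM in tail nLRC and 37.1 ± 0.832 CPM in tail LRC (SD, n = 3), a fall of -1.76 ± 0.24 (adjusted p = 0.00262), and Mt2 fell by 1.65 (SE 0.26, adjusted p = 0.00623), while Mt3 did not pass the count filter. Of the 3 other metallothioneins 2 were tested and both fell in tail LRC, against a median of 0.02 over all genes. Neither passed between LRC and nLRC in back basal or spinous cells, nor in palate or tongue. Their LRC effects were lower in tail than in back, at -1.96 ± 0.36 for Mt1 (adjusted p = 0.00373) and -1.79 ± 0.38 for Mt2 (adjusted p = 0.0124). Unlike Mt4, neither Mt1 nor Mt2 passed in tail bulge or back bulge against basal cells. Tail also differed from back in the family: Mt2 was lower in tail basal cells (-1.28 ± 0.19, adjusted p = 1.73e-05) where Mt4 was higher, and Mt3, the brain metallothionein, was higher in palate (5.61 ± 0.74, adjusted p = 3.27e-05) and tongue (5.99 ± 0.73, adjusted p = 1.34e-05) than in tail, at 2.59 to 9.57 CPM.

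Mettl7a3 and its neighbour Mettl7a1 parted in tail. Mettl7a1 stood at 104 ± 18.3 CPM in tail nLRC and 85.7 ± 19.3 CPM in tail LRC (SD, n = 3) and was not called, so Mettl7a3 took 60.8, 66.1 and 62.1% of the reads of the 3 METTL7A genes in tail nLRC libraries and 27.0, 37.6 and 33.6% in tail LRC libraries. The exact 95% binomial interval, which covers counting error only, was 64.0 to 68.1% for nLRC library 2 and 34.8 to 40.4% for LRC library 2. In tail bulge the share was 7.64, 18.5 and 7.83%. In back skin it was at most 2.32% in any library, and in palate and tongue at most 0.439%, although Mettl7a1 had 196 to 619 reads in each oral library. Mettl7a2, whose sequence is the closest to that of Mettl7a3, had 9 to 53 reads in tail nLRC and 7 to 15 in LRC libraries, and it overlaps Methig1 on the same strand. In back spinous cells Mettl7a1 was higher in LRC (2.00 ± 0.64, adjusted p = 0.0421) while Mettl7b was lower (-6.32 ± 1.09, adjusted p = 0.00135). Mettl7a1 fell in both bulges, at -2.999 ± 0.63 in back (adjusted p = 0.00183) and -2.27 ± 0.24 in tail (adjusted p = 8.63e-05), in the direction of Mettl7a3, and had 0 reads in back bulge library 2.

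**Figure D4:**
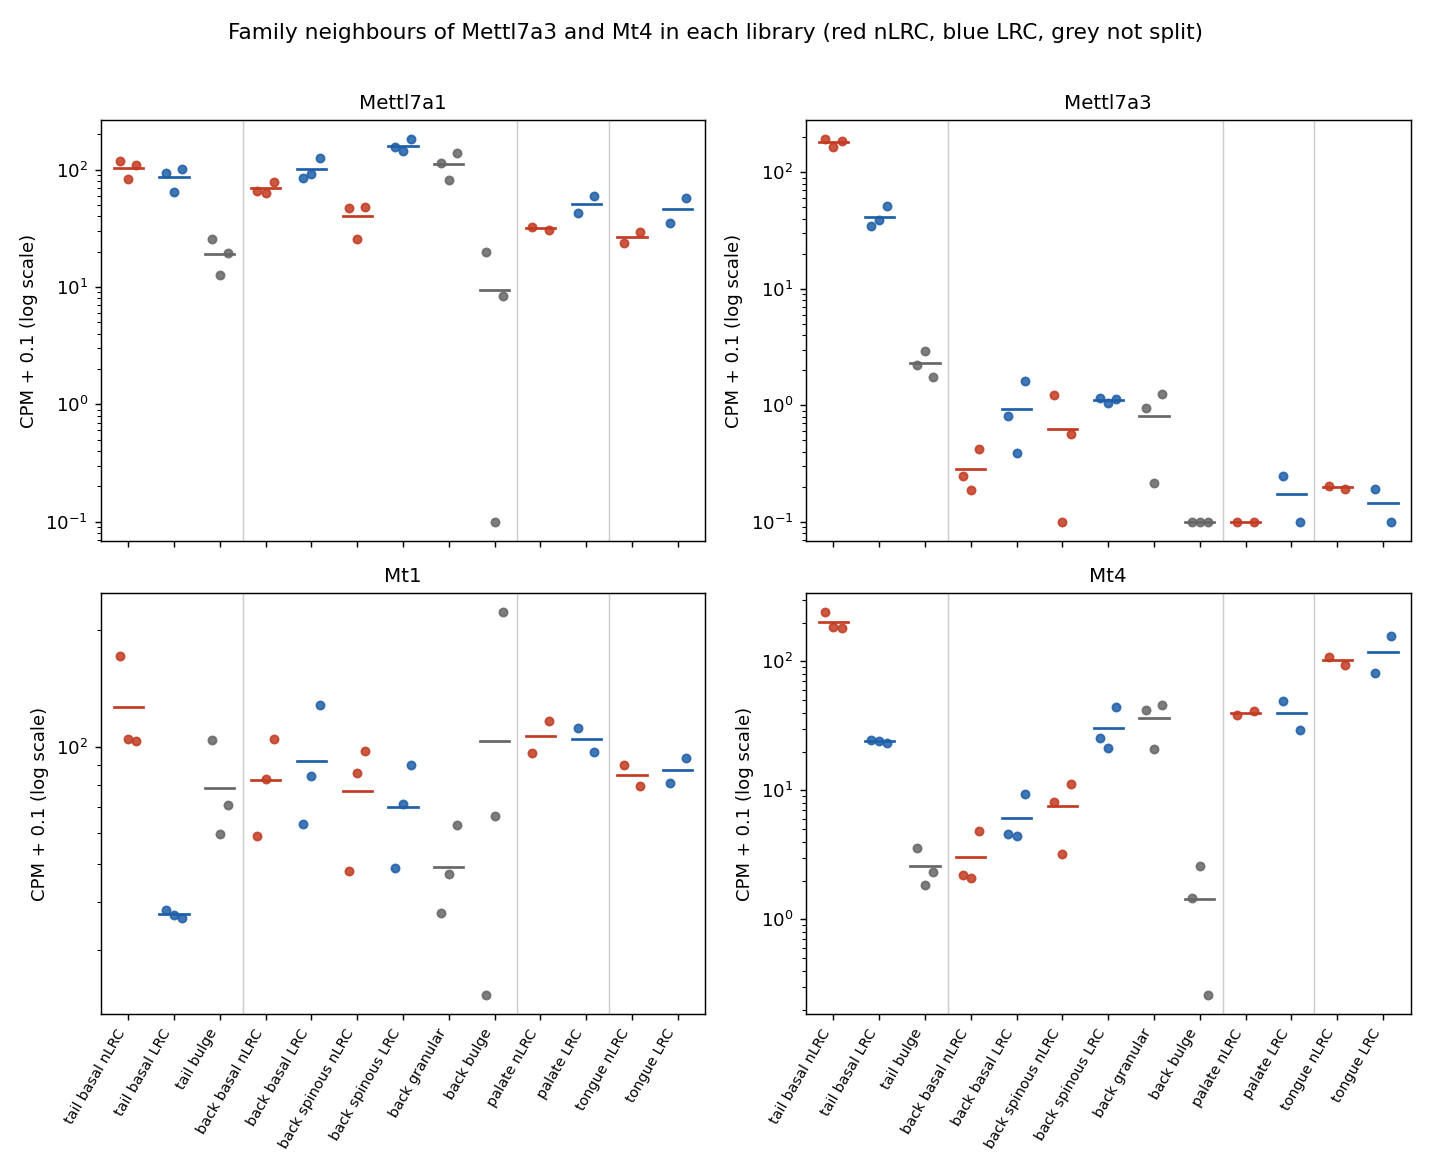
CPM + 0.1 on a log axis in each library for Mettl7a1, Mettl7a3, Mt1 and Mt4 (points are libraries, lines group means; red nLRC, blue LRC, grey not split). Mettl7a1 and Mt1 have reads in every library except Mettl7a1 in back bulge library 2, whereas Mettl7a3 is above 3 CPM in tail basal cells alone.

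Relatives of Basp1 did not move with it in tail. Marcks, which like Basp1 binds the inner face of the plasma membrane, was higher in tail LRC than nLRC (13.6 ± 5.87 against 3.10 ± 1.51 CPM, SD, n = 3; 2.13 ± 0.48, adjusted p = 0.0346), and Marcksl1 did not pass. Of the 3 relatives 2 were tested, as Gap43 was below the count filter. In bulge against basal cells Marcksl1 rose in both tissues (2.91 ± 0.24, adjusted p = 1.81e-05 in tail, and 1.89 ± 0.26, adjusted p = 5.38e-05 in back), and Marcks rose in back (1.42 ± 0.21, adjusted p = 9.84e-05). Basp1 rose in back as well, and in tail only over the mean of LRC and nLRC. Against back skin, Marcks (-2.78 ± 0.25, adjusted p = 4.66e-08) and Marcksl1 (-1.68 ± 0.19, adjusted p = 6.99e-07) were lower in tail basal cells, the opposite of Basp1.

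Around Npr3, 9 other genes of natriuretic peptide signalling were followed and 6 were measurable in tail. Only Prkg2, a cGMP-dependent protein kinase, passed among these 6 in tail, and it was lower in LRC: 22.6 ± 4.20 CPM in nLRC and 4.37 ± 1.74 CPM in LRC (SD, n = 3; -2.36 ± 0.31, adjusted p = 0.00234). Prkg2 was also higher in tail than back basal cells (7.73 ± 0.49, adjusted p = 6.51e-10). The ligand gene Nppc and the receptor gene Npr1 were higher in tail bulge than tail basal cells, Nppc by 2.42 ± 0.43 (adjusted p = 0.00251) and Npr1 by 3.40 ± 0.45 (adjusted p = 0.000372). In back, Nppc had 107, 9 and 179 reads in the bulge libraries and 1 read in each of 2 of the 6 basal libraries, and the kinase gene Prkg1 was higher in bulge (5.14 ± 0.66, adjusted p = 2.51e-05). In back spinous cells Npr1 was lower in LRC (-4.68 ± 0.84, adjusted p = 0.00133), where Npr3 was higher.

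Beside Susd4, 15 other complement genes and regulators were followed. In tail 11 were measurable and none of them passed between LRC and nLRC by the edgeR test, with a median of 0.13. In tail against back basal cells 5 rose and 4 fell of 13 tested (58.3% of all genes were called), and the smallest p among them were those of Cd55, a membrane inhibitor of complement (-3.71 ± 0.21, adjusted p = 1.48e-10), and C2 (-2.70 ± 0.28, adjusted p = 2.79e-07), both lower in tail where Susd4 was higher. In tongue against tail 7 of 13 fell and 1 rose (28.6% of all genes were called), among the falling genes C1s1 (-6.08 ± 0.52, adjusted p = 8.61e-08). Complement C3 was lower in LRC in the back basal (-3.86 ± 0.75, adjusted p = 0.0430) and back spinous layer (-6.35 ± 0.83, adjusted p = 0.000127). Its back basal LRC libraries held 5 to 24 reads. In that comparison 39 genes were called by edgeR and 0 by limma on log2(TPM + 1), so the basal call of C3 was not stable.

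Of 9 other genes of protein C signalling and coagulation, 6 were measurable in tail, where 1 rose and 1 fell in LRC. Pros1, the cofactor protein S, rose by 1.70 ± 0.17 (adjusted p = 0.000411) and Gas6, a related ligand of TAM receptors, fell by 0.65 (SE 0.12, adjusted p = 0.0126). Thbd encodes thrombomodulin, which works with PROCR in activating protein C. It was higher in tail than back basal cells (37.5 against 1.38 CPM, 4.92 ± 0.24, adjusted p = 3.92e-11), as Procr was in the main fit, though not in every alternative. Of the 7 genes of this list tested there, 2 rose and 5 fell, where 31.0% of all genes were called higher and 27.2% lower in tail. In palate, where Procr was higher than in tail, Pros1 was lower (-1.39 ± 0.15, adjusted p = 2.56e-06). There 1 of the 7 tested rose and 4 fell, where 13.8% of all genes were called higher and 13.1% lower in palate. In back bulge Thbd rose with Procr (3.73 ± 0.55, adjusted p = 8.66e-05). Of the 7 genes tested in that comparison 2 rose and 3 fell, where 15.7% of all genes were called higher and 10.6% lower.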

How the data were processed

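Sorted cells gave total RNA for stranded SMARTer Pico v2 libraries, per the labels' protocols. The authors deposited for each gene and library a raw count of total gene reads, TPM and RPKM, per the file headers. Reads were placed on mm10, per the submitters' processing notes, and no aligner, counter or strand setting is named in these sources. Counts were tested with edgeR 4.0.16 in R 4.3.3 (TMM, filterByExpr with a minimum count of 10 and a minimum total of 15, glmQLFTest, Benjamini-Hochberg threshold 0.05). Separate fits held the 18 back, 9 tail, 8 oral and 20 basal libraries, the last on the 47436 shared names. SE was computed from the fold change and the F statistic. Alternatives were other size factors, DESeq2 1.42.0, no filter, a replicate block, fewer groups, single libraries left out and limma 3.58.1 on log2(TPM + 1). Fits without a library that stands apart but lies outside the comparison were added after seeing the data. Same-numbered LRC and nLRC libraries deviated together (correlation 0.452 to 0.657 in tail, 0.543 to 0.629 in back basal and 0.294 to 0.524 in back spinous cells), which pairs them by the data and not by a label. Members and gene lists were chosen with earlier results of these data known. Relatives named are those that passed in tail LRC against nLRC and, elsewhere, at most 2 per list with the smallest p. The gene most like Basp1 is not reported here.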

Additional observations from a re-analysis of the deposited data

Results flagged for a closer look

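For 3 genes, slow and fast cells separated in opposite directions in tail and in another tissue or layer, every library included. They are given as the log2 LRC effect in tail minus that in the other group. The tail values chose the genes, and these differences were not tested, apart from that of Npr3 between tail and back basal cells, which was fitted as the contrast that chose Npr3 and is no finding. Npr3 was lower in every tail LRC library and higher in every back LRC library, with a difference of -4.65 against back basal and -5.58 against back spinous cells. Mt4 differed by -5.09 between tail basal and back spinous cells. Procr differed by -4.53 against palate and -4.81 against tongue, where both LRC libraries were above both nLRC libraries.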

How the results depend on the processing

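Over 1110 combinations of a member, a comparison and an alternative, 1011 counted as unchanged. Where a test was given, that means the same direction and side of the threshold. For comparisons without a test it means a move smaller than the spread between libraries, whatever the side of the threshold. Procr in back basal LRC against nLRC, which ran from -0.3 to 1.32, is thus counted as unchanged. Of the others, 33 lost a call, 23 gained one, 22 turned and 21 values without a test moved by more than their spread. The causes were not tested. In back basal LRC against nLRC, which entered the choice, 1 member passed with DESeq2 and 1 with only the groups compared (Npr3), against 0. In back spinous LRC against nLRC 1 passed with limma, against 2, and 0 to 2 with a library left out. In granular against spinous cells 1 passed without the filter, against 0. In back bulge 3 passed with limma and 3 with only the groups compared, against 5, and 3 (without bulge library 1 or 3) to 5 with a library left out. In tail LRC against nLRC, the contrast that chose them, 3 (without LRC library 3) to 5 members passed with a library left out. That range describes the choice and is no test. Counts of all genes called moved as well (given below), so nothing is read from these member counts.

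With the replicate block the members passing between LRC and nLRC were 2 in back spinous, 0 in palate and 0 in tongue cells. In the contrasts that entered the choice, 6 passed in tail (Npr3 added), 0 in back basal and 4 for the tail minus back effect. Those counts describe how the choice depends on processing and are no test of the members. With the block 2 passed in spinous against basal, 0 in granular, 5 in back bulge, 4 in tail bulge and 6 in each comparison between tissues (Npr3 added in tail against back at 0.55, and Npr3 at 0.85 and Mt4 at 0.62 in tongue against tail). The block also called more of all genes. It called 5111 of 16574 in back bulge (4353 in the main fit) and 5119 of 14993 in tail bulge (3693). Of 17103 genes it called 6126 in palate against tail (4602) and 6207 in tongue against tail (4886). Nothing is read from the member counts against these. The numbers were not shown to pair tissues, palate (0.296) or tongue (-0.0479) libraries.

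Values near 0 turned. Mt4 in palate was -0.003 without the filter and -0.039 with the block, and Mt4 in tongue was -0.022 with limma. Susd4 in spinous against basal cells was 0.007 with median-of-ratios scaling and 0.009 with DESeq2, and Npr3 in tail against back was -0.16 with limma. With a library left out, Procr in spinous LRC ran from -2.829 to 1.923, Npr3 in palate from -0.237 to 0.809 and in tongue from -0.148 to 0.63, and Mt4 in palate from -0.45 to 0.323 and in tongue from -0.336 to 0.629. Susd4 in spinous against basal cells ran from -0.415 to 1.033, Mettl7a3 in granular cells from -0.585 to 0.562 and Npr3 in tail bulge from -0.059 to 0.747.

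Counts of all genes called moved by over 1.5 times in several comparisons. Tail LRC against nLRC had 690, 2128 without the filter and 342 without nLRC library 1. Back basal had 39, 0 with limma, 219 with DESeq2, 2 without nLRC library 2 and 128 without back bulge library 2. The tail minus back effect had 463 and 1182 without the filter. Back spinous had 2571, 1063 with limma, 3895 with only the groups compared, 1306 without nLRC library 2 and 4476 without back bulge library 2. Palate had 0, 269 without the filter and 1601 without nLRC library 1, and tongue had 1, 236 without the filter and 45 without palate nLRC library 2. Spinous against basal had 1504, 607 with limma, 2736 with only the groups compared and 2455 without back bulge library 2. Granular had 664, 207 with limma, 1555 with only the groups compared, 288 without granular library 2 and 1590 without back bulge library 2, and back bulge had 4353 and 1898 with limma. On log2(TPM + 1) the median of all genes lay at 0.16 in tail LRC against nLRC, 0.14 in palate LRC against nLRC, -0.18 in back bulge against basal and -0.16 in palate against tail cells, against 0.02, 0.01, 0.06 and -0.04 by counts. Where an arm kept 1 library, it was assumed to vary like the other groups.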
